A study of Mus musculus with 59 samples.

Results

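Prefrontal cortex of Dyrk1a+/I48X mice given lithium was compared with that of Dyrk1a+/I48X mice given fluoxetine, by RNA sequencing, in 20 of the 59 libraries of the study. The libraries were taken by their labelled genotype and drug, with sex as a block. The lithium group held Dyrk1a+/I48X mice of the C57BL/6J strain given lithium, 5 females and 5 males. The fluoxetine group held Dyrk1a+/I48X mice of that strain given fluoxetine, also 5 females and 5 males. All 20 mice carried the mutation, and the drugs reached them through the milk of the treated dam from postnatal day 3 to day 24, with tissue taken at day 25. Heterozygous mice given vehicle (n = 10) and wild-type mice given lithium (n = 10), fluoxetine (n = 9) or vehicle (n = 10) are used below for levels and for 1 comparison. The labels name neither litters nor dams, and number the replicates without saying more of their origin. Pups of 1 dam share its drug, so that litter and drug cannot be told apart, and p-values measure the spread between these samples, which may be partly technical.

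Dyrk1a encodes a protein kinase, and in people the loss of one copy causes a developmental disorder of the brain. Lithium inhibits glycogen synthase kinase 3 (GSK3), a kinase that marks beta-catenin for degradation, and it also inhibits enzymes that recycle inositol. Fluoxetine blocks the reuptake of serotonin by the transporter Slc6a4, which serotonergic neurons of the brainstem make, so that the cortex holds their axons but little of that messenger RNA. Slc6a4 was too low to be tested here.

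Library totals recovered from the deposited values were 25497635 to 33842466 counts with lithium and 25722797 to 32037662 with fluoxetine. Fluoxetine males 3 and 4 stood apart from the other 18 libraries. On the first principal component, which held 29.72% of the variance, they lay at 102.3 and 67.7, and the others between -23.4 and 9. Their list means for glucocorticoid-induced genes were 1.42 and 0.43 on the log2 scale (deviation from the mean of the 59 libraries), against -0.14 to 0.25 in the other fluoxetine libraries. Neuropeptide precursors were at 0.89 and 0.51 in the same 2 males, against -0.08 to 0.07. The glucocorticoid target Fkbp5 had at most 1354 normalised counts with lithium, whereas its highest fluoxetine library had 8496 and the highest without these males 1352. Many results are therefore given both with all 20 libraries and with the 18 that remain without these males. Others are given with a single set, mostly the 18. Expressed sex-linked genes matched the labelled sex in 20 of 20 libraries.

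Dyrk1a itself (chromosome 16, 94570010 to 94695517 on GRCm38) did not separate the drugs. Its normalised counts had a lowest, median and highest value of 2141, 2330 and 2530 with lithium, against 2182, 2348 and 4214 with fluoxetine. The highest fluoxetine values, 4214 and 3278, were those of males 3 and 4. The log2 fold change of lithium over fluoxetine was -0.12 ± 0.09 with 20 libraries (SE; limma adjusted p = 0.574) and 0.01 ± 0.04 with 18 (adjusted p = 0.974).

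No gene passed an adjusted p of 0.05 between lithium and fluoxetine in heterozygous mice, in limma fits to the groups compared alone. Of 17901 genes tested, 1896 (10.6%) had an unadjusted p under 0.05 with 20 libraries, 956 of them higher with lithium (5.34%) and 940 lower (5.25%). With 18 libraries there were 1282 (7.16%), 705 higher (3.94%) and 577 lower (3.22%), and the smallest adjusted p was 0.0598. Other tools made few calls with 18 libraries: the quasi-likelihood test of edgeR called 2 genes and DESeq2 29, against 0 and 37 with all 20. A fit that takes the spread from all 59 libraries called 588 genes with 20 libraries (304 higher and 284 lower with lithium, 3.28% of genes) and 21 with 18 (15 higher and 6 lower, 0.117%). All 21 were among the 588. The median SE of a log2 fold change was 0.0941 with 20 libraries and 0.0744 with 18, with 0.0598 and 0.046 for genes of higher level.

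Beta-catenin (Ctnnb1, chromosome 9, 120929216 to 120960507 on GRCm38), the Wnt signal transducer that GSK3 marks for degradation, was lower in every lithium library than in any fluoxetine library. It had 15840, 16320 and 17100 normalised counts as lowest, median and highest value with lithium, against 17450, 19260 and 27300 with fluoxetine. Fluoxetine males 3 and 4 had the highest values, 25850 and 27300, and the next library was at 20130. The log2 fold change was -0.30 ± 0.06 with 20 libraries (adjusted p = 0.297) and -0.20 ± 0.03 with 18 (adjusted p = 0.0696). Heterozygous vehicle mice, at 16890, 18050 and 18760 normalised counts, overlapped both groups. Females gave -0.19 ± 0.05, and males without 3 and 4 gave -0.21 ± 0.05. The difference between the sexes was 0.21 ± 0.12 with all libraries, males 3 and 4 included (limma interaction, adjusted p = 0.518). Without these males the changes in females and males were of similar size, as given above.

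Gpt (chromosome 15, 76695716 to 76699686), which encodes an alanine aminotransferase, was the gene of smallest p with 18 libraries and was named for that after its values were seen. It had 203.4, 239.9 and 272.9 normalised counts with lithium as lowest, median and highest value, against 101.3, 173.7 and 199.2 with fluoxetine. The groups did not overlap, and males 3 and 4 had the lowest fluoxetine values, 101.3 and 118.7. The log2 fold change was 0.54 ± 0.10 with 20 libraries (adjusted p = 0.117) and 0.41 ± 0.06 with 18 (adjusted p = 0.0598). Heterozygous vehicle mice spanned 181.4 to 287.9 normalised counts and overlapped both groups. With 18 libraries both Ctnnb1 and Gpt passed the threshold in 8 of 12 alternative analyses, edgeR among them (adjusted p = 0.0378 for each), with adjusted p from 7.16e-08 to 0.998 for Ctnnb1 and from 2.75e-05 to 0.923 for Gpt.

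Cuta (chromosome 17, 26933819 to 26939569), whose product is linked to the membrane anchoring of acetylcholinesterase, also separated the groups. It had 820.4, 854.6 and 921.4 normalised counts with lithium as lowest, median and highest, against 682, 757.7 and 804.5 with fluoxetine, a log2 fold change of 0.20 ± 0.04 with 20 libraries (adjusted p = 0.117) and 0.17 ± 0.03 with 18 (adjusted p = 0.0696). Ints1 (chromosome 5, 139751282 to 139775674), a subunit of the Integrator complex that processes small nuclear RNAs, had 2326, 2546 and 2758 with lithium, against 2080, 2200 and 2416 with fluoxetine. Its groups overlapped by 2 lithium libraries, and the change was 0.18 ± 0.03 and 0.20 ± 0.03 with 20 and 18 libraries (adjusted p = 0.117 and 0.0696). Mthfsd, which encodes a protein with a folate-enzyme-like domain, had a change of 0.17 ± 0.03 with 18 libraries (adjusted p = 0.0696). In 9 genes the 10 lithium and 8 fluoxetine libraries did not overlap, 4 higher with lithium (0.0223% of genes) and 5 lower (0.0279%). These were Gpt, Cuta, Plekhm1 and Cox7b above, and Ctnnb1, Tlk2, Eif5, Scamp1 and 1600012H06Rik below.

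**Figure D1:**
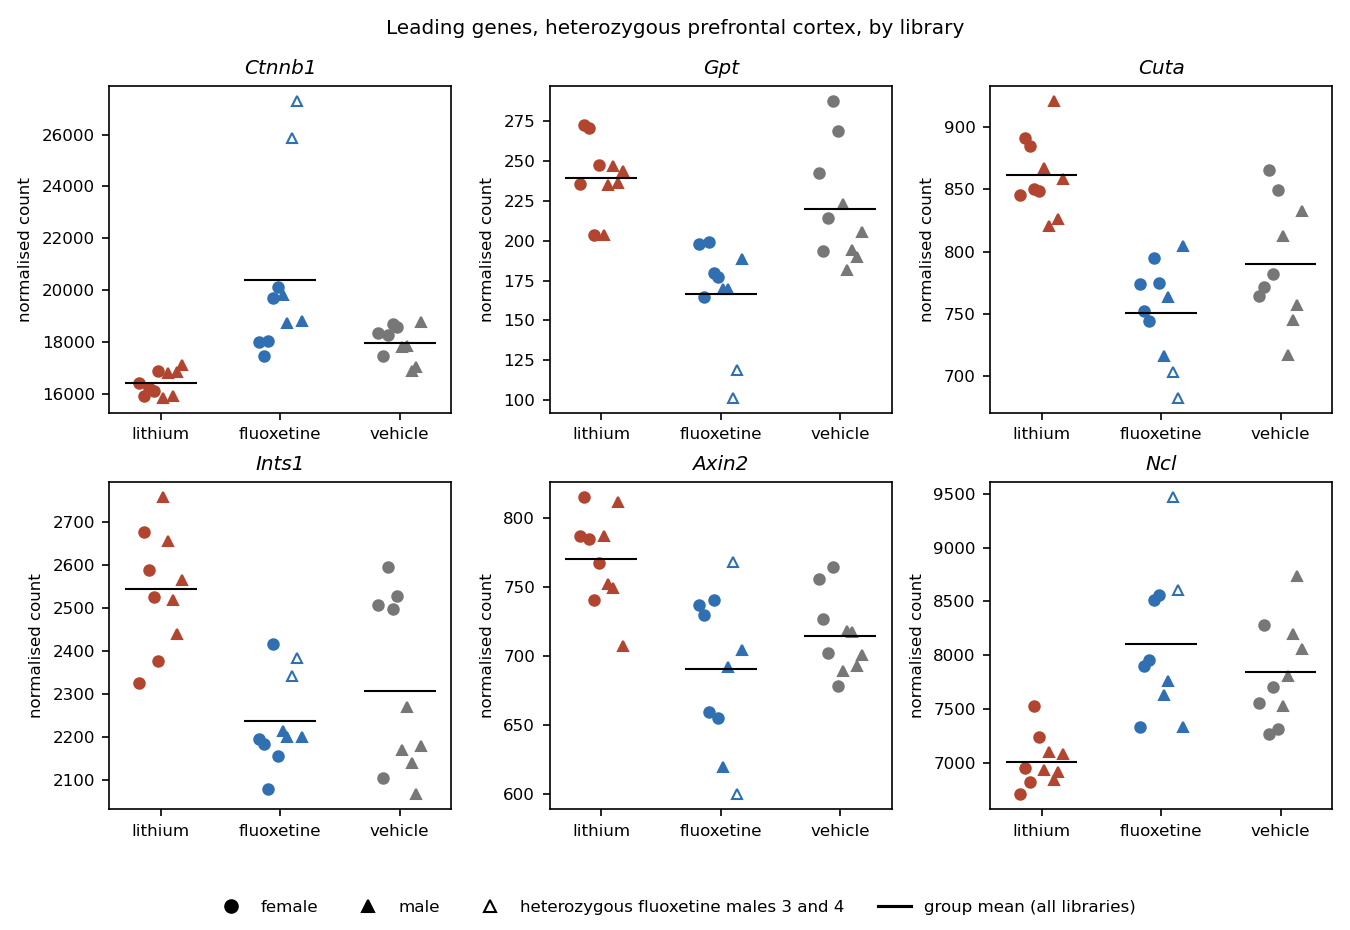
Normalised counts of 6 genes in each heterozygous library (vertical axis, a separate range per gene), with lithium, fluoxetine and vehicle from left to right. Circles are females, triangles males, open triangles fluoxetine males 3 and 4, and lines group means. Lithium and fluoxetine libraries do not overlap for Ctnnb1, Gpt and Cuta, and the open triangles are the extreme fluoxetine values of Ctnnb1 and Gpt.

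Genes of smallest p with a level at or above the median of the genes tested were, higher with lithium, Cuta, Atp5e (epsilon subunit of ATP synthase), Ints1, Fuk (fucokinase), Dnaja4 (a heat shock protein 40 family co-chaperone) and Mthfsd. Lower with lithium were Ctnnb1, Ncl (nucleolin, which acts in ribosome assembly), Rpl14 (a protein of the large ribosomal subunit), Ckap4, Purb, Trim44 and Set. None passed the threshold. Atp5e gave 0.19 ± 0.04 with 18 libraries (adjusted p = 0.142), and every lithium library lay above the fluoxetine mean of its sex. Ncl had 6709, 6941 and 7524 normalised counts with lithium, against 7337, 7928 and 9468 with fluoxetine, and gave -0.16 ± 0.03 with 18 libraries (adjusted p = 0.214). Rpl14 gave -0.17 ± 0.04 (adjusted p = 0.214), with 10 of 10 lithium libraries below the fluoxetine mean of their sex. Such one-sided counts are likely for genes chosen by small p and add no support. Pooling the spread over 59 libraries, the 18-library contrast called Ctnnb1 (adjusted p = 0.000615), Ints1 (0.00601), Gpt (0.0139), Fuk (0.0268), Cuta (0.0325), Axin2 (0.0332) and Rbm28, Mthfsd, Ncl and Ccdc93 (0.0405 each) among the 21.

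In the pathway that lithium acts on, most members did not separate the drugs. Of 30 tested genes of GSK3 and beta-catenin signalling, 1 was higher and 3 were lower with lithium at an unadjusted p under 0.05 with 18 libraries, against 3.94% and 3.22% of all genes, and 2 and 4 with 20, against 5.34% and 5.25%. The median log2 fold change of the list was 0.02 with 18 libraries and 0.00 with 20. Axin2 (chromosome 11, 108920349 to 108950783), a scaffold of the beta-catenin destruction complex and itself a target of Wnt signalling, had 707.1, 776.3 and 815.2 normalised counts with lithium, against 599.8, 698 and 768.1 with fluoxetine. Its change was 0.16 ± 0.04 with 18 libraries (adjusted p = 0.297), and all 10 lithium libraries lay above the fluoxetine mean of their sex. Axin2 was named after its values were seen, so that count adds no support. The lower members besides Ctnnb1 were Apc, another scaffold of that complex, at -0.19 ± 0.06, and Csnk1a1, the casein kinase that primes beta-catenin for GSK3, at -0.08 ± 0.03 (adjusted p = 0.498 and 0.558). For Gsk3b, which encodes one of the GSK3 isoforms, the change was -0.01 ± 0.04 (adjusted p = 0.979).

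Genes of inositol recycling, where lithium is known to inhibit the enzymes, also had no call. Of 24 tested, 1 was higher and 1 lower at an unadjusted p under 0.05 with 18 libraries, near the 3.94% and 3.22% of all genes, with a median of 0.02. Impa1, an inositol monophosphatase, gave 0.02 ± 0.03, and Inpp1, an inositol polyphosphate 1-phosphatase, -0.03 ± 0.03 (adjusted p = 0.944 and 0.938). Isyna1, which makes inositol anew from glucose 6-phosphate, had 589.9, 733.5 and 893.4 normalised counts with lithium, against 472, 641.8 and 726.6 with fluoxetine. It gave 0.21 ± 0.08 with 20 libraries and 0.15 ± 0.07 with 18 (adjusted p = 0.442 and 0.631).

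Of the serotonin receptors and transporters, 15 genes were tested, with a median of -0.08 with 18 libraries. With 20 libraries 1 was higher and 3 were lower with lithium at an unadjusted p under 0.05, against 5.34% and 5.25% of all genes. With 18 libraries none was, against 3.94% and 3.22%. The ion-channel receptor Htr3a had 126.5, 181.2 and 209.7 normalised counts with lithium, against 184.6, 207.9 and 270 with fluoxetine, and gave -0.26 ± 0.10 with 20 libraries and -0.18 ± 0.09 with 18 (adjusted p = 0.442 and 0.711). In wild-type mice the same gene gave -0.37 with lithium (limma adjusted p = 0.00865), and -0.28 with the mean of the olfactory bulb list, described further on, as a covariate (adjusted p = 0.363). Htr1a, Htr2a and Htr2c gave -0.08, -0.17 and -0.31 with 18 libraries (adjusted p = 0.944, 0.852 and 0.897). Htr1d, at a median of 44.8 normalised counts with lithium and 62.7 with fluoxetine, gave -0.88 ± 0.34 with 20 libraries and -0.52 ± 0.29 with 18 (adjusted p = 0.448 and 0.780). Its lowest value, 8.74, was that of lithium female 1, without which the change with 18 libraries was -0.26.

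Interferon-stimulated genes, which cells switch on when interferon signals a viral infection, were the list with the most members lower with lithium at an unadjusted p under 0.05, among 31 lists. Of 23 tested, 22 were below 0 with 20 libraries and 21 with 18, against 50.5% and 50.2% of all genes. At an unadjusted p under 0.05, 13 were lower and 0 higher with 20 libraries, and 10 and 0 with 18, against 5.25% and 3.22% of all genes lower. The median log2 fold change was -0.43 with 20 libraries and -0.34 with 18, beside 0.00 over all genes. No member passed the adjusted threshold. The difference was uneven between libraries: the list mean ran from -0.30 to 0.26 with lithium and from -0.23 to 1.07 with fluoxetine, where male 2 had 1.07, male 3 0.66, female 1 0.50 and male 4 0.47. Without male 2 besides males 3 and 4 the median was -0.16, 21 of 23 members were still below 0, and 1 of 23 was lower at an unadjusted p under 0.05, against 3.24% of all genes. In bulk tissue, fewer cells of a type and less RNA per cell cannot be told apart. The microglia list, which marks the brain's resident immune cells, had a median of -0.01 with 18 libraries, 8 members above 0 and 10 below. With 20 libraries its median was 0.06, with 13 members above 0 and 5 below.

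The deubiquitinating protein Usp18, a brake on interferon signalling, had 17.9, 30.5 and 39.97 normalised counts with lithium as lowest, median and highest, against 27.8, 41.2 and 113 with fluoxetine. It gave -0.67 ± 0.21 with 20 libraries and -0.56 ± 0.22 with 18 (adjusted p = 0.442 and 0.583). Irf7, a transcription factor of the interferon response, had 42.4, 58.4 and 68.4 with lithium, against 60.2, 69.3 and 340.6 with fluoxetine, and gave -0.78 ± 0.27 and -0.50 ± 0.21 (adjusted p = 0.442 and 0.610). Its 4 highest fluoxetine values, 340.6, 221.9, 143.1 and 109.2, belonged to males 3, 2 and 4 and female 1. Ifit1, which binds foreign RNA, gave -0.58 ± 0.23, and Rsad2, an antiviral enzyme, -0.39 ± 0.14 with 18 libraries (adjusted p = 0.567 and 0.558).

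The promoters of 3 members are shown because the list mean was high in a few fluoxetine libraries. They are, among members with a match, those of smallest p with 18 libraries, read 5′ to 3′ on the gene's strand, with the 150 bases before the start from RefSeq on GRCm38.p6. Capitals mark matches, on either strand, to GAAA, any 2 bases and GAAA again (TTTC, any 2 bases and TTTC when read on the other strand), the core of the interferon-stimulated response element. Matches may overlap.
Rsad2 (chr12:26456453-26456602, minus strand): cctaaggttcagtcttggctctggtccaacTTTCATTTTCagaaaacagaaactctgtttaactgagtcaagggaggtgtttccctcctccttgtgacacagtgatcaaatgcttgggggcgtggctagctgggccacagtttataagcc
Ifit1 (chr19:34640739-34640888, plus strand): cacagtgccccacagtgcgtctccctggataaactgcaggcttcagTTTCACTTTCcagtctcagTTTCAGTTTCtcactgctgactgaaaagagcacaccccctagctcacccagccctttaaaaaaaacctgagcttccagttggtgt
Bst2 (chr8:71537473-71537622, minus strand): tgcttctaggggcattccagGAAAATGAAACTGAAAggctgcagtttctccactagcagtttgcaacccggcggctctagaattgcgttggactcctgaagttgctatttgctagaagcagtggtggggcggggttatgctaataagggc
Windows of 300 bases, 250 before to 50 after the start, were at hand for 17 of the 23 members tested. In 10 of these 17 members a window held this motif, against 472 of the 12685 tested genes with a window (3.72%). The match is a description of the letters. Bst2, whose product tethers virus particles to the cell surface, had 57.3, 74.2 and 110.3 normalised counts with lithium, against 64.8, 112.6 and 261.6 with fluoxetine.

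**Figure D2:**
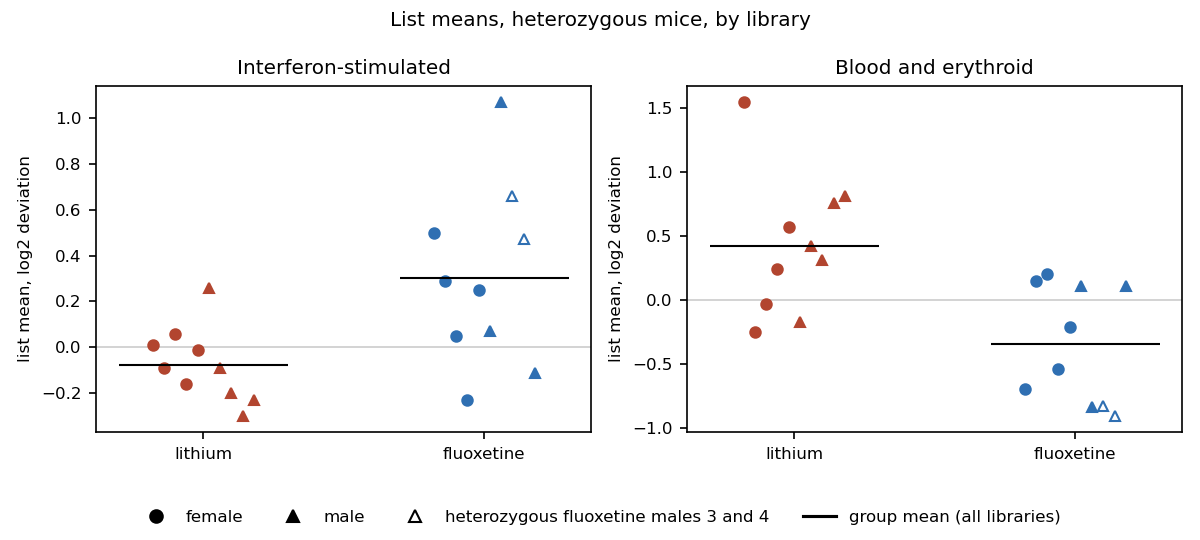
Mean of the interferon-stimulated list (left) and of the blood list (right) in each heterozygous library, as log2 deviation from the mean of the 59 libraries, lithium left of fluoxetine. Circles are females, triangles males, open triangles fluoxetine males 3 and 4, and lines group means. Fluoxetine male 2 stands at 1.07 for interferon genes and lithium female 1 at 1.55 for blood genes.

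Blood genes were higher with lithium in both fits, though none passed the adjusted threshold. All 6 tested were above 0 in log2 fold change, against 49.5% and 49.8% of all genes, with 6 of 6 higher at an unadjusted p under 0.05 with 20 libraries and 5 of 6 with 18, against 5.34% and 3.94% of all genes higher. The median was 0.70 with 20 libraries and 0.62 with 18. Beta-globin Hbb-bs had 3883, 5100 and 11220 normalised counts with lithium, against 2590, 3271 and 4931 with fluoxetine, and gave 0.69 ± 0.19 with 20 libraries and 0.61 ± 0.20 with 18 (adjusted p = 0.427 and 0.523). The highest value was that of lithium female 1, which also had the highest list mean, 1.55, and without it the median of the 18 libraries was 0.46. Globins have near-identical copies between which reads can be split, so single globin values are uncertain. Alas2, the first enzyme of heme synthesis in red cells, gave 0.59 ± 0.24 with 18 libraries (adjusted p = 0.597).

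Immediate early genes, the first transcripts to appear in an active neuron, were higher with lithium in part, and more of them in females taken alone. Of 30 tested, 7 were higher and 0 lower with 18 libraries at an unadjusted p under 0.05, against 3.94% and 3.22% of all genes, and 5 and 1 with 20, against 5.34% and 5.25%. The list median was 0.04 with 18 libraries, with 20 members above 0 and 10 below. With 20 libraries it was 0.003, with 15 above and 15 below. Leaving out 1 library moved the 18-library median between 0.005, without fluoxetine female 5, and 0.13, without lithium female 1. In females 9 were higher and 0 lower, against 3.13% and 2.59% of all genes, with a median of 0.19. In males without 3 and 4 the counts were 0 and 2, against 2.32% and 1.9% (4.22% in all), with a median of -0.05. The difference between the sexes passed the threshold for no gene (limma interaction, 1577 genes at an unadjusted p under 0.05, 8.81%). DESeq2 called 1.

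Arc, a regulator of synaptic strength, had 1732, 3184, 3474, 3687 and 4564 normalised counts in lithium females, against 1448, 1764, 1795, 1955 and 2115 in fluoxetine females, listed by size. A single lithium female lay within the range of the fluoxetine females, and the log2 fold change in females was 0.82 (unadjusted p = 0.0026). In males without 3 and 4 it was 0.22. Over both sexes the median of Arc was 2918 with lithium, 1875 with fluoxetine and 5356 with vehicle. The heterozygous vehicle libraries were split. Replicates 1 and 2 of each sex had 2025 to 3119 normalised counts, within the lithium range of 1428 to 4564. Replicates 3 to 5 had 5034 to 6071. The differences from vehicle were not tested here. Dusp1, a phosphatase of MAP kinases, gave 0.81 and Nr4a1, a nuclear receptor, 0.63 in females, and with 18 libraries 0.56 ± 0.15 and 0.45 ± 0.14 (adjusted p = 0.382 and 0.498). Fos gave 0.52 ± 0.25 and Egr1 0.20 ± 0.14 with 18 libraries (adjusted p = 0.696 and 0.852).

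In females alone the genes of smallest p were, higher with lithium, Dusp1, Cuta, Ccdc93, Igsf9b and Nr4a1, and, lower, Cirbp, Brinp3, Rpl14, Eif3f and Hnrnpd, of which none passed (0 of 17901, 1023 at an unadjusted p under 0.05, 5.71%, and DESeq2 10). Cirbp, a cold-inducible RNA-binding protein, had 1145 to 1360 normalised counts in lithium females, against 1556 to 1874 in fluoxetine females, and gave -0.42 (unadjusted p = 5.1e-05, adjusted p = 0.824). In males, with all 10 libraries (0 called, 1667 at an unadjusted p under 0.05, 9.31%, and DESeq2 9), they were Slc43a2, Atp5e, Uqcrq, Tubb3 and Tuba1a, higher, and Acvr1c, Purb, Tgfbr1, Atp11b and Rprml, lower. Acvr1c, a receptor of the transforming growth factor beta family, had 406 to 468 normalised counts in lithium males, against 570.8 to 865.7 in fluoxetine males and 570.8 to 820.9 without males 3 and 4. In females its ranges were 397 to 617.1 and 411.3 to 566.9. The interaction of drug and sex was 0.78 on the log2 scale, female minus male (limma adjusted p = 0.516). The other genes of smallest p in that test were Fam199x, Pcdhga3, Rnf5, Tmem170b and Bdnf, a neurotrophin, which gave 0.40 in females and -0.75 in males, or -0.38 without males 3 and 4.

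Among energy and translation genes, 44 genes of oxidative phosphorylation had 6 members higher and 0 lower at an unadjusted p under 0.05 with 18 libraries, against 3.94% and 3.22% of all genes, and a median of 0.03. Cox7b, a subunit of cytochrome c oxidase, had 2988, 3126 and 3456 normalised counts with lithium, against 2749, 2933 and 3046 with fluoxetine, and gave 0.12 ± 0.03 with 18 libraries (adjusted p = 0.293). Of 69 cytosolic ribosomal protein genes, 6 were higher and 5 lower, against the same shares of all genes, with a median of -0.01. Rpl41 was among the higher, at 0.22 ± 0.05 (adjusted p = 0.289), and Rpl14 and Rpl21 among the lower. With 18 libraries the list thus did not move one way. With 20 libraries 4 were higher and 9 lower, against 5.34% and 5.25% of all genes, with a median of -0.03. In wild-type mice 61 of 69 were below 0, and 0 were called higher and 9 lower, against 7.45% and 6.11% of all genes. With the olfactory bulb covariate none was called there, and 54 were below 0. Ribosomal protein genes have many processed copies, between which reads can be split.

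Cell-type lists varied with single libraries. The 28 markers of myelinating oligodendrocytes had a median of -0.20 with 18 libraries, 26 below 0, and 1 higher and 1 lower at an unadjusted p under 0.05, against 3.94% and 3.22% of all genes. With 20 libraries the median was -0.07, 21 were below 0, and 1 was higher and 0 lower, against 5.34% and 5.25%. Lithium female 1 had a list mean of -1.29, against -0.50 to 0.34 in the other lithium libraries. Without it the median was -0.04 with 18 libraries and 0.05 with 20. That library also had the lowest olfactory bulb mean and the highest blood mean of the lithium group. The list mean of olfactory bulb markers, genes of the tissue in front of the cortex, ran from -2.43 to 1.60 with lithium and from -1.54 to 1.53 with fluoxetine, where males 3 and 4 had -1.50 and -1.54. Their median change was -0.02 with 20 libraries and -0.40 with 18, with no member at an unadjusted p under 0.05. Without lithium female 1 these medians were 0.30 and 0.00. With the bulb list mean as a covariate, limma called 7 genes with 18 libraries: Ctnnb1, Gpt, Cuta, Ints1, Mthfsd, Hnrnpd and Tmem8.

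**Figure D3:**
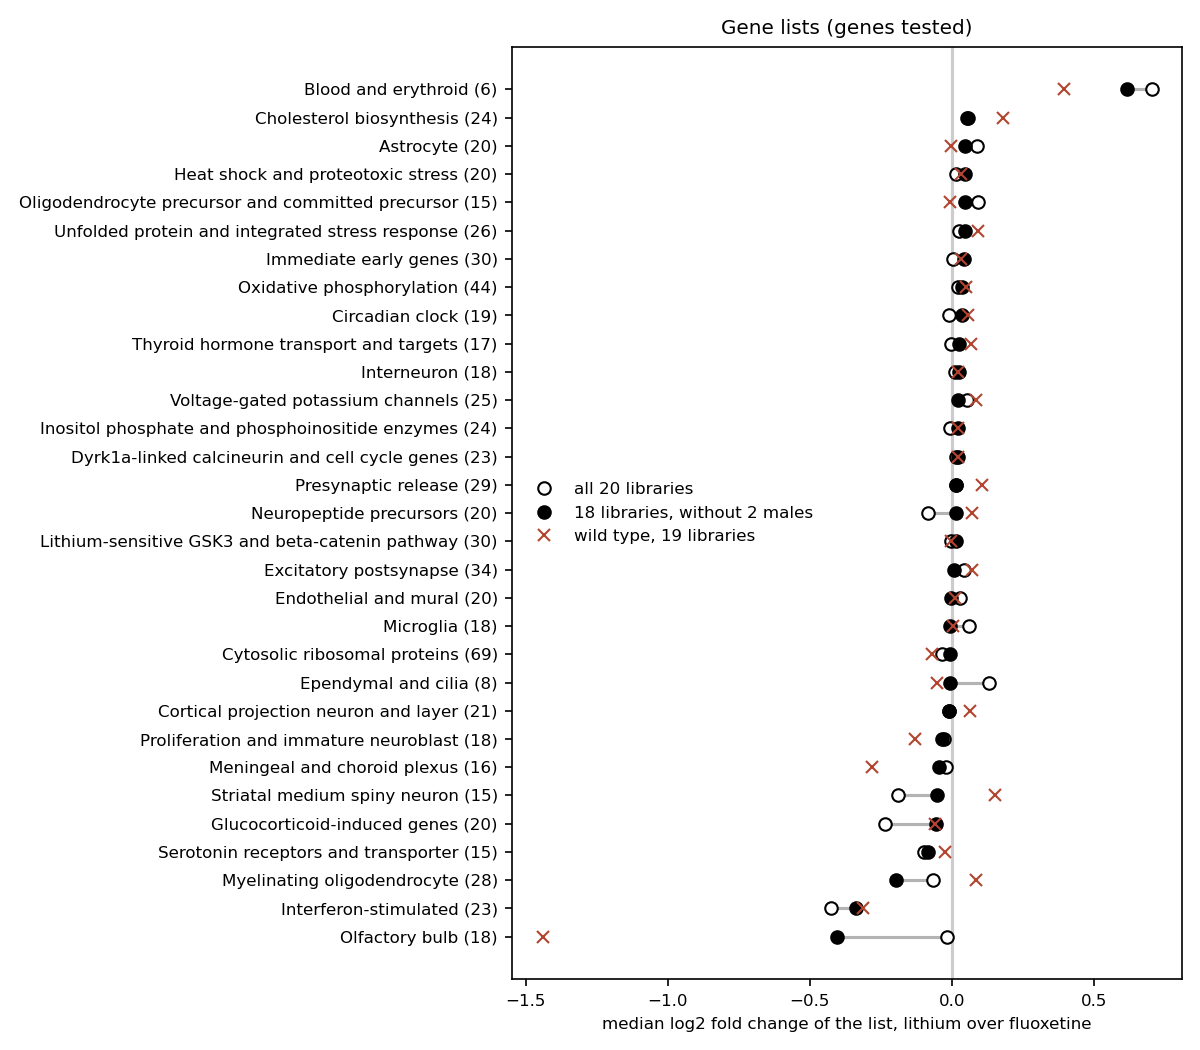
Median log2 fold change of lithium over fluoxetine for each gene list, with the number of genes tested in brackets: open circles are the 20 heterozygous libraries, filled circles the 18 without fluoxetine males 3 and 4, and crosses the 19 wild-type libraries. Most lists lie near 0, interferon-stimulated genes are at -0.43 and -0.34, blood genes at 0.70 and 0.62, and olfactory bulb genes at -1.44 in wild-type mice.

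The same contrast in wild-type mice, which share no library with the heterozygous comparison, called 2427 genes (13.6%; limma), 1333 higher and 1094 lower with lithium. The olfactory bulb list moved with it: its mean had a median of -1 with lithium and 0.74 with fluoxetine, and 17 of 18 members were called lower. With the bulb list mean as a covariate 6 genes were called (0.0335%). That covariate itself differed between the drugs, so the fit cannot tell its part in the calls apart from that of the drug. With the spread pooled over 59 libraries 28 were called (0.156%). Ctnnb1 gave -0.16 ± 0.03 in wild-type mice (adjusted p = 0.00279) and -0.17 with the covariate (adjusted p = 0.0668). Ints1 gave 0.16 ± 0.03 (adjusted p = 0.00633) and 0.13 with the covariate (adjusted p = 0.288). Gpt gave 0.12 ± 0.08 (adjusted p = 0.344) and 0 with the covariate (adjusted p = 0.997). Axin2 gave 0.04 ± 0.04 (adjusted p = 0.492) and 0.02 with the covariate (adjusted p = 0.949). Mthfsd gave 0.13 (adjusted p = 0.0421) and 0.01 with the covariate (adjusted p = 0.932). Cuta gave 0.08 (adjusted p = 0.161) and 0.06 with the covariate (adjusted p = 0.723). Ncl gave -0.14 (adjusted p = 0.00733) and -0.1 with the covariate (adjusted p = 0.34).

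Of the 1282 genes with an unadjusted p under 0.05 in the 18 heterozygous libraries, 1038 (80.97%) had the same sign in wild-type mice, against 62.91% of all genes tested. With the bulb covariate in both genotypes the shares were 76.31% of 2085 genes and 59.57%. With 20 heterozygous libraries and no covariate they were 77.53% of 1896 genes and 57.26%. The interferon list had a median of -0.31 in wild-type mice, with 0 members called higher and 5 lower (7.45% and 6.11% of all genes), Usp18 (-0.77, adjusted p = 0.0407), Ifit1, Bst2, Rtp4 and Lgals3bp. With the bulb covariate none of these 5 passed, while the folds stayed of similar size: -0.64 for Usp18, -0.61 for Ifit1, -0.62 for Bst2, -0.43 for Rtp4 and -0.40 for Lgals3bp (limma adjusted p from 0.391 to 0.539). The list median was then -0.36, with 21 of 23 members below 0. The list mean reached 1.21 in 1 wild-type fluoxetine library and ran from -0.29 to -0.04 with lithium. Of 24 cholesterol biosynthesis genes, 15 were called higher and 0 lower with lithium in wild-type mice, with a median of 0.18. With the bulb covariate none of the 24 was called, the median was 0.14, and 13 were higher and 0 lower at an unadjusted p under 0.05, against 4.74% and 4.69% of all genes. With the spread pooled over 59 libraries 1 was called. In heterozygous mice 3 of 24 were higher at an unadjusted p under 0.05 with 18 libraries, against 3.94% of all genes, with a median of 0.05. With 20 libraries 0 of 24 were, against 5.34% of all genes, with a median of 0.05.

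A test of the difference between the genotypes, heterozygous minus wild-type effect, passed for no gene (limma, 1750 at an unadjusted p under 0.05, 9.78%), and DESeq2 called 1. No effect was therefore shown to be particular to heterozygous mice. The genes of smallest p were Dlat, Tmem164, Txlna, Fat4, Rnf103 and Fam155a. Txlna had 1467, 1609 and 1789 normalised counts with lithium, against 1343, 1447 and 1624 with fluoxetine in heterozygous mice, and gave 0.14 ± 0.04 there with 18 libraries and -0.03 ± 0.03 in wild-type mice. Gpt differed by 0.42 between the genotypes with 20 libraries and by 0.29 with 18 (unadjusted p = 0.00318 and 0.00876), and Fuk by 0.25 and 0.27 (unadjusted p = 0.00616 and 0.00429). Both genes were picked for a small p in these same heterozygous libraries, which by itself favours a gap to wild-type mice. Their unadjusted p-values are therefore no evidence of a genotype difference.

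**Figure D4:**
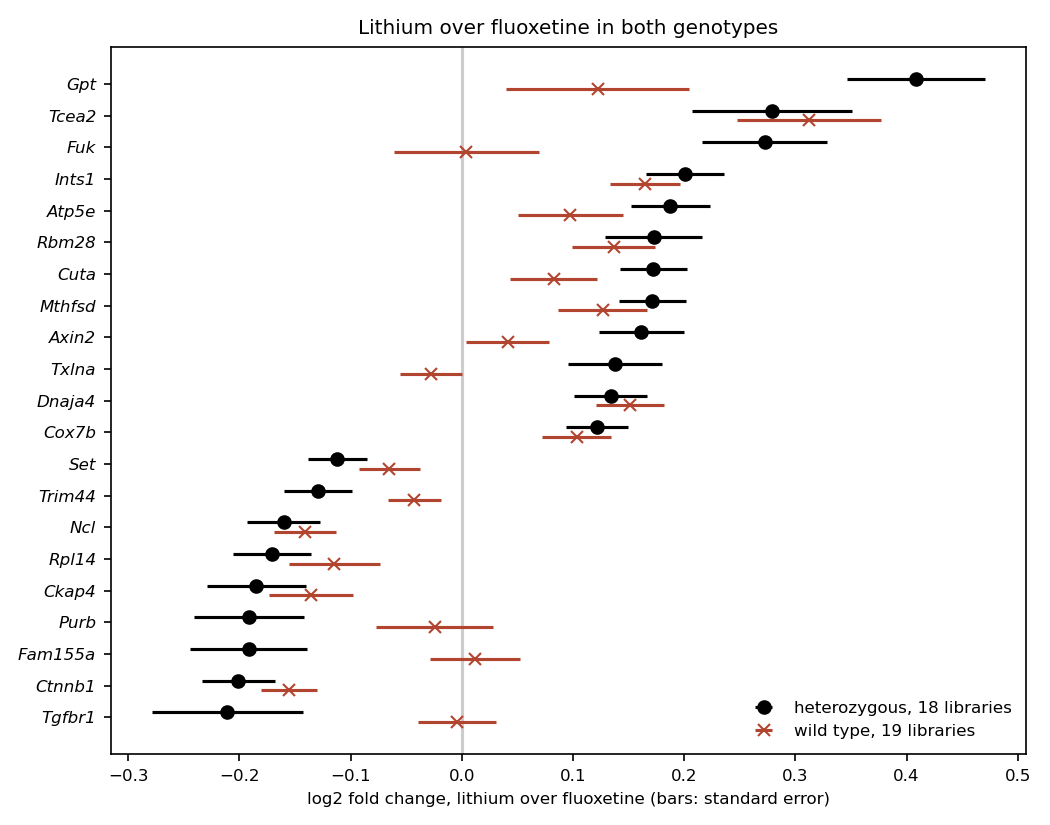
Log2 fold change of lithium over fluoxetine (horizontal axis, with standard error) for 21 genes of small p in the 18 heterozygous libraries (filled circles) and in the 19 wild-type libraries (crosses). Ctnnb1 and Ints1 lie on the same side of 0 at similar size in both genotypes, and Gpt, Fuk and Tgfbr1 lie nearer 0 in wild-type mice. Genes picked for small p in heterozygous libraries are, by that choice, more likely to lie nearer 0 in wild-type mice.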

How the data were processed

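Stranded libraries of polyadenylated RNA from prefrontal cortex were sequenced, per the labels' protocols. The submitters' processing notes name Salmon 0.11.2, R 3.6.0, DESeq2 1.19.11 and the build GRCm38, without saying what each was used for. The authors deposited normalised values as 1 table of 18088 genes, which is a signal on the scale of counts over size factors. Whole counts were recovered from the steps between low values (100% of values within 0.01 counts, and in 3 libraries the step was near 1).

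Each contrast was fitted with limma 3.58.1 (R 4.3.3, trend on the mean) to log2(value + 1), which understates changes of low genes. Sex was a term, and 17901 genes that reached 10 in at least 4 of the 59 libraries were tested. Benjamini-Hochberg adjustment ran over all of them, with a threshold of 0.05. Alternatives were edgeR 4.0.16 and DESeq2 1.42.0 on recovered counts, other scalings, filters, pseudocounts, covariates and library weights, and each library left out. The slope of each library on gene length as a covariate, and the interferon list without fluoxetine male 2, were added after seeing the data. Replicates differed by more than sampling noise (chi-square per gene 5.448 to 87.29 over 40 pairs). The limma step was tested on simulated data. The comparison, members and lists were chosen with earlier results of these data known. Genes named are Dyrk1a and the drugs' known targets. They also include the 5 of smallest p each way with a level at or above the median, also within each sex, and the 6 of smallest p in each test of a difference. Other list members, and Gpt, were chosen after their values were seen.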

Additional observations from a re-analysis of the deposited data

Results flagged for a closer look

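A sample far from the others of its group of 5 was found 8 times in 100 groups examined, where chance flags about 1 in 20 groups. The flags were not independent, as lithium female 1 and fluoxetine female 5 each had more than 1. The count can therefore not be weighed against that rate. Lithium female 1 was far above the other lithium females for the globins Hbb-bs, at 11220 normalised counts, and Hba-a1, at 6899, and far below them for the myelinating oligodendrocyte list mean, at -1.29. Among lithium males, male 1 was lowest for Gpt at 203.8, which lay above every fluoxetine library, and male 2 was lowest for the glucocorticoid list mean at -0.09. Among fluoxetine females, female 1 was highest for Irf7 at 109.2, and female 5 was lowest for Fos at 326.6 and for the immediate early list mean at -0.46.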

How the results depend on the processing

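In the 20 heterozygous libraries limma called 0 genes, and DESeq2 called 37, the spread of all 59 libraries 588, and library weights 4. Without fluoxetine males 3 and 4 the call of 0 became 2 with TMM scaling, 5 with a filter of 100, 2 with edgeR, 29 with DESeq2, 21 with the spread of 59 libraries, 5 with weights, 7 with the olfactory bulb covariate and 6 with the length slope. Females gave 10 with DESeq2 and 1 with the length slope, males 9 with DESeq2 and 3276 with the spread of 59 libraries, and the sex and genotype differences 1 each with DESeq2. The 2427 calls in wild-type mice became 28 with the spread of 59 libraries, 3801 with weights and 6 with the bulb covariate. Leaving out each library gave 0 to 1 calls in the 18 libraries (1 without fluoxetine female 4, lithium female 4 or lithium male 1), 0 to 1 in males (1 without lithium male 1) and 1206 (without fluoxetine male 2) to 3454 (without fluoxetine female 2) in wild-type mice. The cause of these shifts was not tested.

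Replicate numbers did not pair the samples: 1 of 10 pairs had a correlation of deviations over 0.1 (-0.236 to 0.122), and 0 libraries correlated best with their own number. The replicate block gave 0 calls in each heterozygous comparison and 214 in wild-type mice.

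Changes near 0 turned sign. With weights and 20 libraries Gsk3b gave -0.03, Impa1 0.01, Inpp1 -0.02, Htr1a -0.07, Rcan1 0.05 and Bdnf 0.01, and Dyrk1a gave -0.01 with 18. Quantile scaling gave 0 for Rcan1. With 18 libraries the bulb covariate gave 0 for Dyrk1a and -0.01 for Bdnf. Leaving out each library gave, with 20 libraries, -0.02 to 0.03 for Gsk3b, -0.01 to 0.04 for Inpp1, -0.04 to 0.05 for Rcan1 and -0.16 to 0.05 for Nr4a2. With 18 it gave 0 to 0.03 for Dyrk1a, -0.04 to 0.01 for Gsk3b, -0.02 to 0.18 for Bdnf and -0.22 to 0.02 for Nr4a2.

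The spread between 10 and 8 libraries limits single genes of low level most. Litter could not be told apart from drug.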
